A study of Mus musculus with 8 samples.

Results

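The genes described here make cholesterol and fatty acids. They were chosen by symbol from a list of 31 genes, and 30 of them had a row among the 19191 gene rows of the deposited count table, while Hmgcs1 was not analysed here. By role they were 15 enzymes of sterol synthesis, 6 regulators or carriers of sterols and 9 enzymes that make or modify fatty acids. All 30 had enough counts to enter the comparison of genotypes.

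Cells build both products from cytosolic acetyl-CoA. Mevalonate and squalene are intermediates on the way to cholesterol, and malonyl-CoA feeds the chain of a fatty acid. Both branches are switched on by the SREBP transcription factors, which stay in the endoplasmic reticulum membrane with their escort Scap and the anchor proteins Insig1 and Insig2 while sterols are plentiful, and move to the nucleus after cleavage when sterols run low. Dividing T cells draw on these enzymes for new membrane, and in regulatory T (Treg) cells, a Foxp3-positive population that restrains immune responses, the mevalonate pathway has been tied to function.

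RNA-seq counts were compared in flow-sorted Treg cells of large-intestinal lamina propria from C57BL/6 mice. Libraries called WT carried Ahrf/+ Foxp3Yfp-Cre and libraries called KO carried Ahrf/- Foxp3Yfp-Cre, with 2 libraries of each. Ahr encodes the aryl hydrocarbon receptor, a ligand-activated transcription factor. Both genotypes carried Cre made from the Foxp3 locus, which deletes the floxed allele in Foxp3-expressing cells, so WT Treg cells kept 1 working copy and KO Treg cells none. Cells that do not express Foxp3 kept 2 working copies in WT mice and 1 in KO mice, so changes arising in Treg cells and changes arising in other tissue cells cannot be told apart. The labels do not state ages or how many animals went into a library. The p-values therefore reflect only how these libraries scatter, which may be technical. That scatter, and the intervals drawn from it, take in any difference between replicate numbers, for which the test had no term.

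Total counts ran from 26862922 to 62402450 per library, and the deeper library of each genotype was replicate 2. Levels are given as CPM, the count per 1000000 counts of the library, scaled for library size and composition but not for gene length, so they were compared between libraries and not between genes. Foxp3 stood between 250.1 and 279.6 CPM in the 4 libraries, and all 8 Treg markers found in the table were counted in each of them. Counts over the Ahr gene had a log2 fold change of -0.09 ± 0.09 (SE), which does not check the deletion because a transcript without the deleted part is still counted. Ahrr, the repressor that Ahr induces, stood at 7.30 and 6.55 CPM in WT against 0.391 and 0.265 CPM in KO.

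KO against WT asks which of these genes differ when Ahr is lost. None of the 30 genes passed edgeR's quasi-likelihood test with Benjamini-Hochberg adjustment over 14274 genes (adjusted p = 1.00 for each), where 0% of all tested genes were called. At an unadjusted p under 0.05 there were 0 of the 30 genes beside 2.85% of all tested genes. DESeq2 called 0 of them beside 0.267% of the genes it gave an adjusted p, and limma-voom called 0. Even Ahrr was not called by edgeR (adjusted p = 0.22) or limma-voom (adjusted p = 0.312), although DESeq2 called it (adjusted p = 3.11e-18). A gene that edgeR did not call may therefore still differ. In the authors' deposited table the adjusted p-values of the 30 genes were 0.889 for each, and 0.344% of all rows there were under 0.05. Fitted log2 fold changes, where a positive value means higher in KO, were above 0 for 23 of the 30 genes and below 0 for 7, with a median of 0.04 beside 0.01 over all tested genes. Over all tested genes, 7424 of 14274 were above 0. Within replicates, KO exceeded WT for 14 of the 30 genes in replicate 1 and for 23 in replicate 2. The direction was the same in both replicates for only 15 of the 30 genes, or 50%, beside 56.7% of all tested genes.

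The intervals bounded most differences. High counts alone did not make an interval narrow. Fasn, with 4143 to 12619 counts a library, had a 95% interval of -0.63 to 0.58 in log2. The 95% interval of the KO to WT ratio lay inside 1.5-fold in both directions for 23 of the 30 genes, or 76.7%, beside 57.1% of all tested genes. It lay inside 2-fold for 29 of the 30 genes, beside 74.5% of all tested genes. Fads2, which had 105 counts in all, was the exception. The median size of the log2 fold change, regardless of sign, was 0.05 for these genes and 0.10 over all tested genes.

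**Figure D1:**
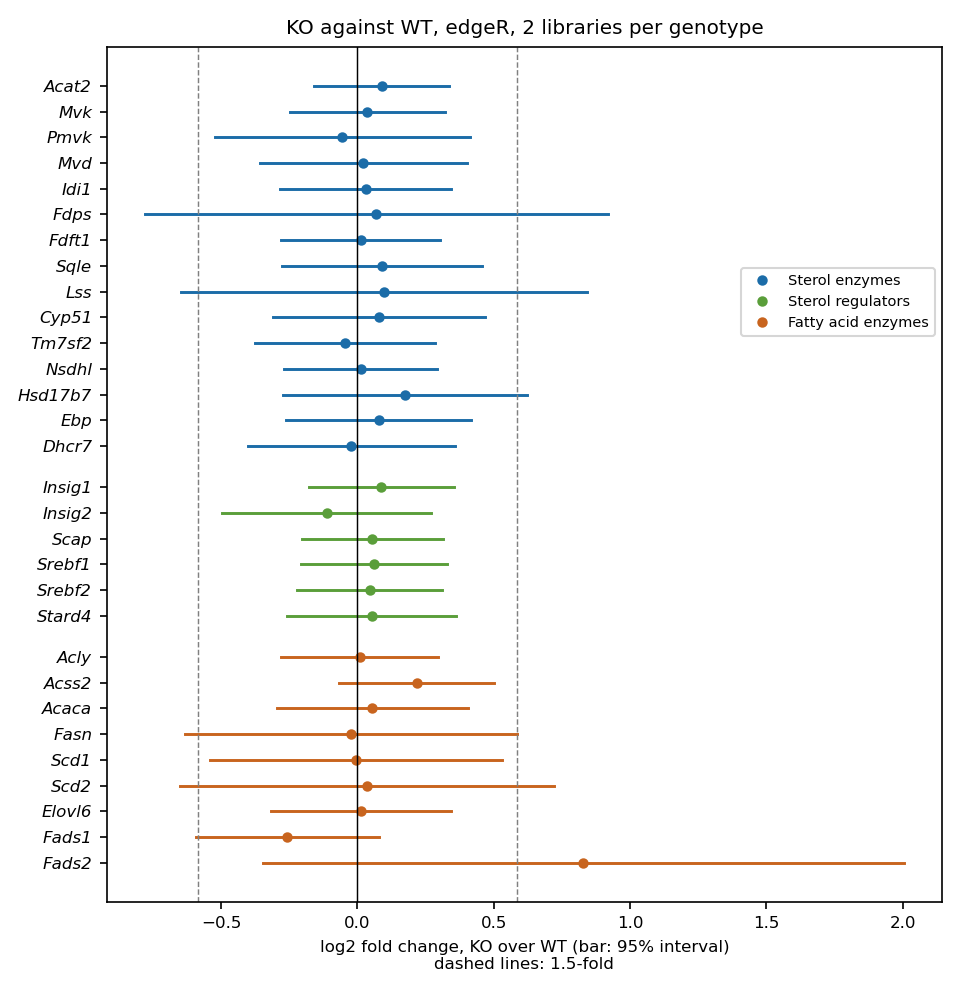
Fitted log2 fold change of KO over WT (x axis) for each gene (y axis, grouped by role), with points for the estimate and bars for the 95% interval from edgeR over 2 libraries per genotype. All bars cross 0. The bars of 23 of the 30 genes stay between the dashed lines at 1.5-fold, and the bar of Fads2 is the widest.

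Among the enzymes of sterol synthesis, 12 of 15 had a fold change above 0 and 3 below, and the log2 values spanned only -0.06 to 0.17. At the entry, Acat2, which condenses acetyl-CoA into acetoacetyl-CoA (chromosome 17, 13135756 to 13153613, minus strand, mm9), stood at 28.3 and 27.2 CPM in WT against 29.9 and 29.0 CPM in KO. Both KO libraries lay above both WT libraries, although the log2 fold change was only 0.09 ± 0.10 (SE, 95% interval -0.16 to 0.34). The kinases Mvk and Pmvk, which phosphorylate mevalonate and its product, had log2 fold changes of 0.04 ± 0.11 and -0.06 ± 0.19. Pmvk shows why the second value is loose, at 14.1 and 15.6 CPM in WT but 11.9 and 16.6 CPM in KO, so that the KO libraries lay on either side of WT. Mvd, the decarboxylase that follows, had 0.02 ± 0.15, and the isomerase Idi1 had 0.03 ± 0.13.

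Fdps, which makes farnesyl diphosphate, the branch point toward sterols and protein prenylation (chromosome 3, 88897514 to 88905881, minus strand), stood at 15.3 and 24.8 CPM in WT against 15.2 and 27.0 CPM in KO. The replicates differed far more than the genotypes, and the log2 fold change of 0.07 ± 0.34 had a 95% interval from -0.78 to 0.92. Fdft1, squalene synthase and the first enzyme committed to sterols, was steadier at 43.1 and 44.3 CPM in WT against 40.8 and 47.2 CPM in KO. Squalene epoxidase, Sqle, had 59.9 and 67.5 CPM in WT against 60.0 and 75.5 CPM in KO, for a log2 fold change of 0.09 ± 0.15. In Sqle the gap was confined to replicate 2, with log2 ratios of KO over WT of 0.00 in replicate 1 and 0.16 in replicate 2. Lss, which closes squalene epoxide into lanosterol (chromosome 10, 75994352 to 76018224, plus strand), stood at 16.1 and 24.4 CPM in WT against 16.4 and 27.0 CPM in KO. Like Fdps, Lss separated the libraries by replicate number and not by genotype.

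Of the enzymes that turn lanosterol into cholesterol, Cyp51, the lanosterol demethylase, stood at 267 and 310 CPM in WT against 264 and 345 CPM in KO (log2 fold change 0.08 ± 0.16). The widest difference of any sterol enzyme was that of Hsd17b7, a ketoreductase of a separate demethylation, with 28.4 and 34.7 CPM in WT against 30.6 and 40.6 CPM in KO. Its log2 fold change was 0.17 ± 0.18 (95% interval -0.27 to 0.62), and the genotypes overlapped. Within replicates the log2 ratio was 0.11 in replicate 1 and 0.23 in replicate 2. Its partner Nsdhl, the sterol dehydrogenase, had 0.01 ± 0.11, and the isomerase Ebp had 0.08 ± 0.135. The reductases Tm7sf2 and Dhcr7, the latter acting at the last step, had -0.04 ± 0.13 and -0.02 ± 0.15. Thus none of the 15 sterol enzymes, early or late in the pathway, passed the test. Only in Acat2 did the libraries of the 2 genotypes not overlap.

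The 6 regulators and carriers were similarly close. Insig1, an anchor that SREBP itself induces, stood at 296 and 320 CPM in WT against 304 and 351 CPM in KO, for a log2 fold change of 0.09 ± 0.11 (95% interval -0.18 to 0.35). Insig2, the other anchor, stood at 9.09 and 9.97 CPM in WT against 8.08 and 9.54 CPM in KO, for a log2 fold change of -0.11 ± 0.15. The libraries of the 2 genotypes overlapped in both anchors. Scap, the escort, had 0.06 ± 0.10, and Stard4, a carrier that moves cholesterol between membranes, had 0.05 ± 0.12. Srebf2, whose product acts mainly on sterol genes, stood at 243 and 210 CPM in WT against 242 and 226 CPM in KO. Srebf1, whose product acts mainly on fatty acid genes, stood at 115 and 114 CPM in WT against 110 and 128 CPM in KO. Their log2 fold changes were 0.04 ± 0.11 and 0.06 ± 0.11, and all 6 intervals lay inside 1.5-fold.

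The 3 widest differences were those of fatty acid enzymes. These 3 of 9, or 33.3%, had a log2 fold change beyond 0.2 in either direction. That share was near the 27.3% of all tested genes, and 0 of the 21 other genes did so. The fatty acid enzymes did not differ more as a group. Their median size of log2 fold change, regardless of sign, was 0.03, beside 0.06 for the sterol enzymes and 0.06 for the regulators. Acss2, which makes cytosolic and nuclear acetyl-CoA from acetate (chromosome 2, 155343684 to 155411460, plus strand, mm9), stood at 30.8 and 34.1 CPM in WT against 39.6 and 36.0 CPM in KO. Both KO libraries lay above both WT libraries. The log2 fold change was 0.22 ± 0.11 (95% interval -0.07 to 0.50, unadjusted p = 0.108 by edgeR's quasi-likelihood test). The gap was wider in replicate 1, at 0.36, than in replicate 2, at 0.08. Acly, the other source of cytosolic acetyl-CoA, starts from citrate and did not show that pattern, with 311 and 350 CPM in WT against 307 and 357 CPM in KO (log2 fold change 0.01 ± 0.12).

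Fads1 and Fads2 encode the desaturases that make long polyunsaturated fatty acids. They lie on chromosome 19 on opposite strands with their annotated starts 81.4 kb apart (mm9, Fads2 at 10138654 to 10175993, Fads1 at 10257378 to 10271360). Fads1 stood at 12.9 and 14.9 CPM in WT against 11.1 and 12.1 CPM in KO, with both KO libraries below both WT libraries. Its log2 fold change was -0.26 ± 0.13 (95% interval -0.59 to 0.08, unadjusted p = 0.110 by edgeR), with -0.21 in replicate 1 and -0.29 in replicate 2. Fads2 had 13 and 26 counts in WT and 24 and 42 in KO, or 0.484 and 0.408 CPM against 0.782 and 0.795 CPM. Here both KO libraries lay above both WT libraries, and the log2 fold change was 0.83 ± 0.47 with an interval from -0.35 to 2.01. The neighbours thus had fold changes of opposite sign, and neither passed the test.

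Some epithelial markers were also higher in KO, as were Acat2, Acss2 and Fads2. Of the 9 epithelial markers tested, 6 had both KO libraries above both WT libraries, 2 had both below and 1 overlapped. Over all tested genes, 13.5% had both above and 13.4% both below. The summed level of the 11 found in the table was 27.9 and 28.0 CPM in WT against 28.7 and 41.9 CPM in KO. Krt8 and Tspan8 were at 0 in WT replicate 1, and Krt19 and Krt20 were at 0 in WT replicate 2. The 2 markers that were lower in KO were Epcam, at 14.7 and 14.5 CPM in WT against 12.2 and 13.7 CPM in KO, and Krt18, at 2.01 and 2.26 CPM against 1.43 and 1.53 CPM. The summed level of the 7 adipocyte markers in the table ran from 1.005 to 2.94 CPM, with Cidec and Retn at 0 in some libraries. The part of other cells in the values of these genes was not tested, and in sorted bulk samples fewer cells of a type and less RNA per cell cannot be told apart.

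The remaining fatty acid enzymes did not separate the genotypes. Acaca, which makes malonyl-CoA, had a log2 fold change of 0.05 ± 0.14. Fasn, the synthase that builds palmitate, stood at 165 and 198 CPM in WT against 135 and 222 CPM in KO. The KO libraries of Fasn lay on either side of WT, with log2 ratios of -0.29 in replicate 1 and 0.16 in replicate 2. The stearoyl-CoA desaturases Scd1 and Scd2 introduce the first double bond, and their genes lie 87.6 kb apart on chromosome 19. Scd2 had 60.1 and 83.4 CPM in WT against 55.5 and 91.4 CPM in KO, and Scd1 had 4.10 and 4.90 CPM in WT against 4.76 and 4.24 CPM in KO. Reads of such similar genes can be shared, so these single values are uncertain. Elovl6, which lengthens palmitate, had 0.01 ± 0.13.

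Sterol and fatty acid enzymes were then set side by side. The median log2 fold change was 0.04 for the 15 sterol enzymes, 0.05 for the 6 regulators and 0.01 for the 9 fatty acid enzymes, beside 0.01 over all tested genes. The sterol median minus the fatty acid median was 0.02, with 0.02 in replicate 1 and 0.02 in replicate 2. The sign did not hold when single libraries were left out, with -0.04 without WT replicate 2, -0.05 without KO replicate 2, 0.0053 without KO replicate 1 and 0.03 without WT replicate 1. With the regulators counted among the sterol enzymes it was 0.04. With means in place of medians the difference was -0.05, since the mean takes in the single high value of Fads2. These are descriptions with no test.

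Both KO libraries lay above both WT libraries in 3 of the 30 genes (Acat2, Acss2 and Fads2), or 10.0%, beside 13.5% of all tested genes. Both lay below in 1, Fads1, or 3.33%, beside 13.4%. The share of these genes with no overlap between genotypes was therefore no larger than that of all tested genes. When each library was left out in turn, the fitted direction held in all 4 fits for 5 genes, namely Acat2, Insig2, Acss2, Fads1 and Fads2. It turned in at least 1 fit for the other 25. Leaving out 1 library can hardly turn a gene whose genotypes do not overlap. For Acat2, Acss2, Fads1 and Fads2 the result therefore follows from the lack of overlap and adds nothing to it. The same count over all tested genes was not made.

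**Figure D2:**
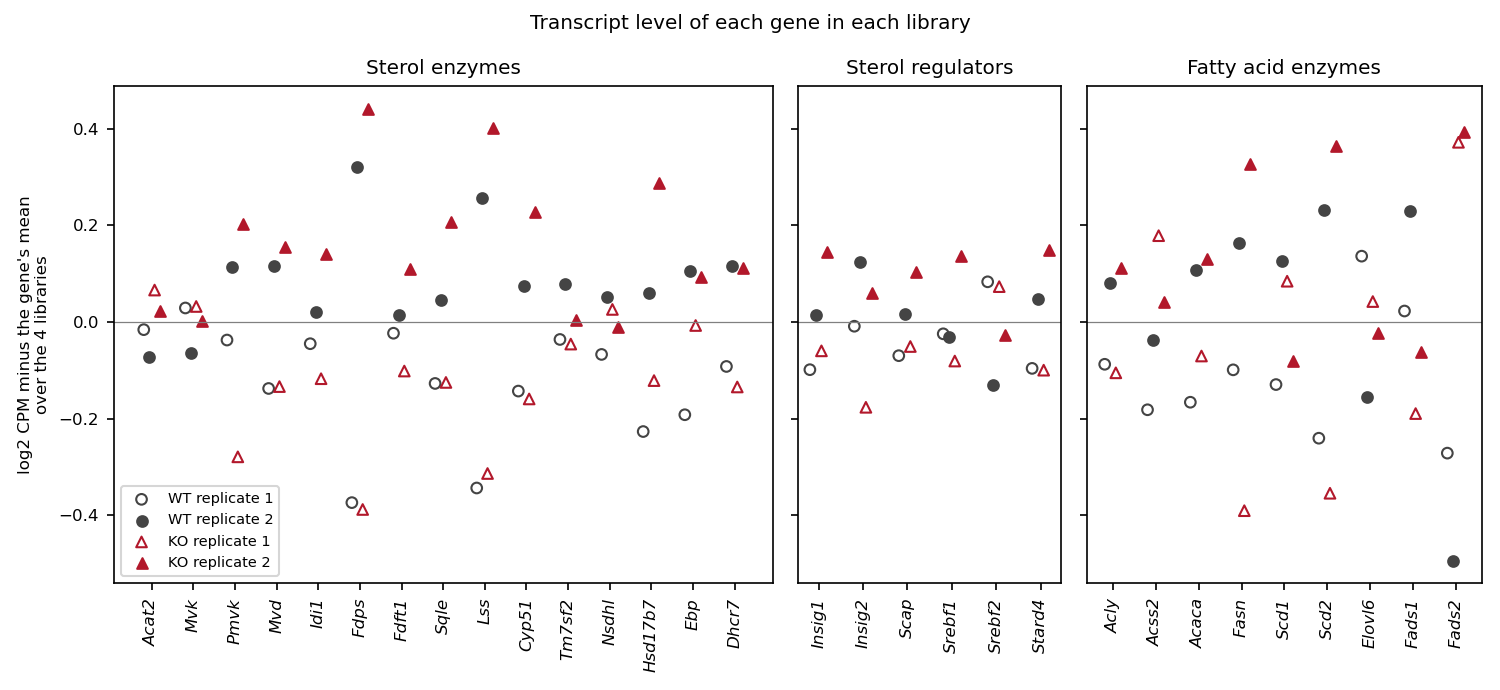
Level of each gene in each library as log2 CPM minus the mean of that gene over the 4 libraries (y axis), for sterol enzymes, sterol regulators and fatty acid enzymes (panels). Circles are WT and triangles KO, open symbols are replicate 1 and filled symbols replicate 2. For 20 of the 30 genes both filled symbols lie above both open ones, most widely for Fdps and Lss, whereas the triangles lie clear of the circles in 4 genes.

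The larger division ran between replicate numbers. Both replicate 2 libraries lay above both replicate 1 libraries in 20 of the 30 genes, or 66.7%, beside 28.1% of all tested genes, and both lay below in 3, or 10.0%, beside 26.4%. The 20 genes were 12 of 15 sterol enzymes, 4 of 6 regulators and 4 of 9 fatty acid enzymes. Fdps was 1.62-fold higher in replicate 2 than in replicate 1 in WT and 1.78-fold higher in KO. Lss was 1.52-fold and 1.64-fold higher, Scd2 1.39-fold and 1.65-fold, and Fasn 1.20-fold and 1.65-fold. These enzymes were high in the same 2 libraries although they belong to different branches. Srebf2 went the other way, with replicate 2 at 0.863 of replicate 1 in WT and 0.934 in KO, as did Elovl6 at 0.817 and 0.956.

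The median log2 ratio of replicate 2 over replicate 1 was 0.17 in WT and 0.26 in KO for sterol enzymes, and 0.21 in WT and 0.13 in KO for fatty acid enzymes, beside 0.00 in both genotypes over all tested genes. For 26 of the 30 genes, or 86.7%, the mean difference between replicate numbers was wider than that between genotypes, beside 64.3% of all tested genes. This is a description with no test, since the labels do not say what a replicate number stands for.

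Several other gene groups moved with the replicate number. The median log2 ratio of replicate 2 over replicate 1 in 21 proliferation genes was 0.54 in WT and 0.57 in KO. Of these genes, 16 had both replicate 2 libraries above both replicate 1 libraries, beside 28.1% of all tested genes. Of 9 stromal and endothelial markers, 8 did so, and their summed level was 121 and 116 CPM in replicate 1 of WT and KO and 175 and 184 CPM in replicate 2. Pecam1 made up most of that sum at 105 to 113 CPM in every library, while the collagen gene Col3a1 stood at 5.55 and 4.01 CPM in replicate 1 and at 37.8 and 44.8 CPM in replicate 2. The summed B and plasma cell markers were 148 and 153 CPM in replicate 1 and 275 and 362 CPM in replicate 2, although only 1 of those 7 markers, Igj, had both replicate 2 libraries above both replicate 1 libraries. Of 12 macrophage and dendritic cell markers, 9 went the other way, beside 26.4% of all tested genes. The sums of the 12 were 188 and 147 CPM in replicate 1 and 98.7 and 85.5 CPM in replicate 2. None of these 4 groups had a marker at 0 in any library. The part of these groups in the difference between replicate numbers was not tested.

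**Figure D3:**
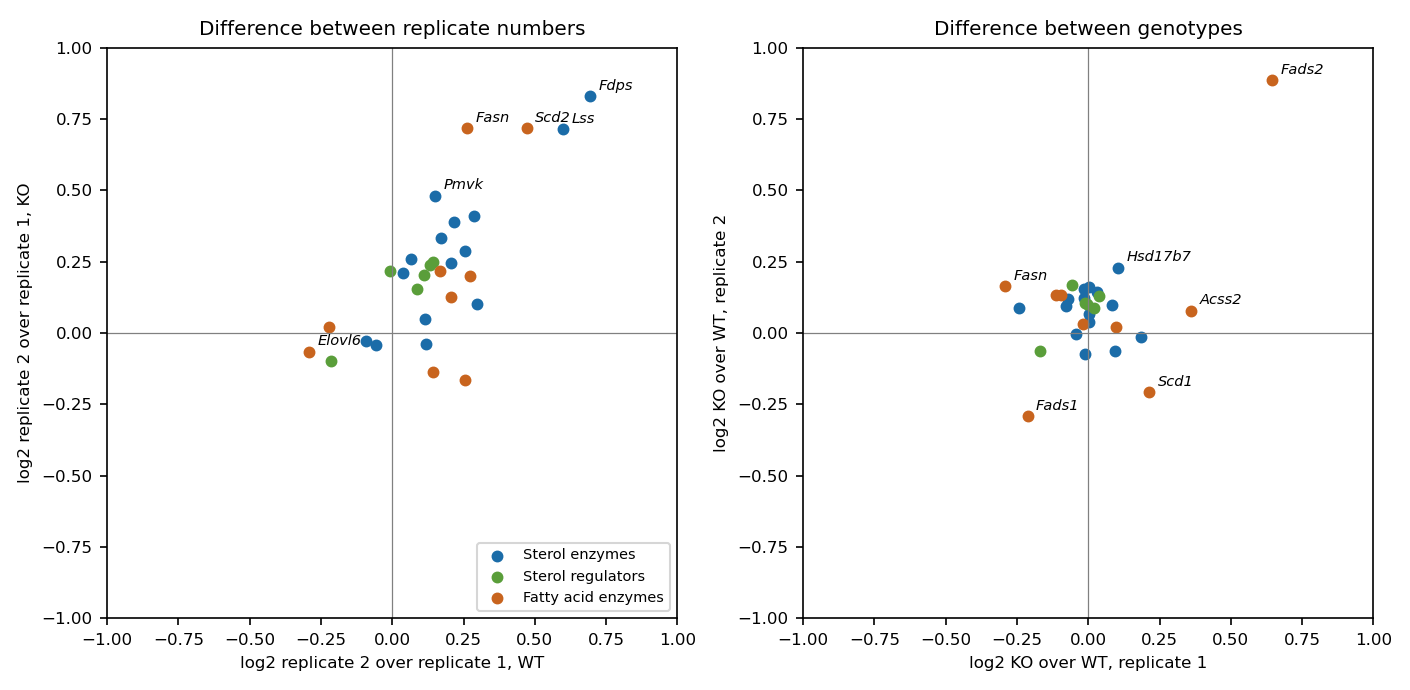
Each point is 1 gene, coloured by role. The left panel plots log2 replicate 2 over replicate 1 in WT (x axis) against the same in KO (y axis), and most genes lie at upper right, with Fdps at 0.69 and 0.83. The right panel plots log2 KO over WT in replicate 1 (x axis) against replicate 2 (y axis) on the same scale, and all genes but Fads2 lie within 0.4 of 0 on both axes.

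Promoter sequences were taken from RefSeq (GRCm38.p6) for the 250 bases before the annotated start, and 23 of the 30 genes matched by symbol. The letters searched, on both strands, were CCAAT, the box bound by NF-Y, a usual partner of SREBP, then CACNCCAC, a core of the sterol regulatory element, and GCGTG, the core bound by Ahr with Arnt. A match is a description and not a binding site. CCAAT was found for 17 of the 23 genes, or 73.9%, beside 37.5% of all gene symbols with a promoter and 33.8% of all 32851 windows. GCGTG was found for 13 of 23, or 56.5%, beside 30.9% of symbols and 28.2% of windows. CACNCCAC was found for Acat2 and Insig1, or 8.70%, beside 6.05% of symbols and 5.29% of windows. The symbols and windows set beside them include genes not expressed in these cells and were not matched for base composition. The 23 genes were all expressed, so these shares are not a like comparison and enrichment was not tested. The promoters below are of Lss, which separated the replicates, and of Acat2 and Acss2, which were higher in both KO libraries. Fads2, also higher in both KO libraries, had a promoter with no match to any of these letters and is not shown. Capitals mark the matches, read 5′ to 3′ on the strand of the gene, and a match on the other strand is shown as its reverse complement, ATTGG for CCAAT and CACGC for GCGTG.
Lss (chr10:76531355-76531604, plus strand): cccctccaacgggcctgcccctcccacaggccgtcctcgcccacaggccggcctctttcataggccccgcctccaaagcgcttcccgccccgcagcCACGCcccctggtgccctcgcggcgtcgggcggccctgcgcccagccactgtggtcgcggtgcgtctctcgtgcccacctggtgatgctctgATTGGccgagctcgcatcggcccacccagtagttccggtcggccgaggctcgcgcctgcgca
Acat2 (chr17:12960726-12960975, minus strand): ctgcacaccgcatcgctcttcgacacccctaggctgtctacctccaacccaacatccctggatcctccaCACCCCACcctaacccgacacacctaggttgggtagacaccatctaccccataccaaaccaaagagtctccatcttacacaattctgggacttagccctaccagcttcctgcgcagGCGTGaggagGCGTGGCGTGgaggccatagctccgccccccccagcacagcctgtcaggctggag
Acss2 (chr2:155517793-155518042, plus strand): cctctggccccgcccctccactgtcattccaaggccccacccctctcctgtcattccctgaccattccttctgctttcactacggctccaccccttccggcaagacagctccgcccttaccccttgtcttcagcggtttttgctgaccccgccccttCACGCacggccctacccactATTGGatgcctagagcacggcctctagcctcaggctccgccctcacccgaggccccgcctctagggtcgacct
The Lss and Acss2 windows each held 1 CCAAT and 1 GCGTG, both on the other strand. The Acat2 window held 3 GCGTG and 2 CACNCCAC, of which 1, on the other strand, overlaps 2 of the GCGTG matches, and no CCAAT.

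The wider lipid pathways were read from 6 further lists and proliferation from another. None of their genes passed edgeR over all genes tested. In the list of other sterol synthesis and uptake genes, 8 of 11 tested were above 0 and 3 below, with a median log2 fold change of 0.07. Among those of lowest p were Npc2, a lysosomal cholesterol carrier (0.21 ± 0.09), and Scarb1, a lipoprotein receptor (0.17 ± 0.18). Npc2 stood at 290 and 316 CPM in WT against 348 and 351 CPM in KO, with no overlap (unadjusted p = 0.0625, adjusted p = 1.00 by edgeR).

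Genes that process or degrade SREBP had 5 of 9 above 0 and a median of 0.03, and among those of lowest p were the protease Mbtps1 (-0.13 ± 0.12) and the ubiquitin ligase Rnf5 (-0.31 ± 0.31). Genes of the sterol sensor LXR, of sterol efflux and of storage had 4 of 11 above 0 and 7 below, with a median of -0.07. Among them Abcg1, a sterol exporter that LXR induces, stood at 84.9 and 89.6 CPM in WT against 75.1 and 77.3 CPM in KO. Both KO libraries lay below both WT libraries, with a log2 fold change of -0.20 ± 0.09 (unadjusted p = 0.0863, adjusted p = 1.00 by edgeR). Cyp27a1 (-1.18 ± 0.64) and Hsd3b7 (-0.39 ± 0.30), enzymes that oxidise sterols toward bile acids, had the next lowest p in that list. Cyp27a1 stood at 1.97 and 0.644 CPM in WT against 0.619 and 0.511 CPM in KO, so WT replicate 1 alone was high. Hsd3b7 stood at 3.05 and 3.71 CPM in WT against 3.06 and 2.14 CPM in KO, so KO replicate 2 alone was low. The macrophage and dendritic cell markers were also mostly lower in KO, with a median log2 fold change of -0.53 and with KO below WT in both replicates for 9 of 12, although none had both KO libraries below both WT libraries. Their part in the values of this list was not tested.

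Other genes of fatty acid and lipid synthesis had 12 of 20 above 0 and a median of 0.05. Elovl7, a fatty acid elongase, was alone among the genes of the lipid lists in passing an unadjusted threshold of 0.05. By edgeR's quasi-likelihood test its unadjusted p = 0.0474 and its adjusted p = 1.00. It had 1 and 13 counts in WT and 10 and 57 in KO. Its levels of 0.0372 and 0.204 CPM in WT against 0.326 and 1.08 CPM in KO did not overlap, as was so of 6 epithelial markers, whose part in this value was not tested. Me1, the malic enzyme that supplies NADPH, had -1.30 ± 0.66 from 6 to 26 counts a library, and Acsl3, an acyl-CoA synthetase, had 0.21 ± 0.13. Fatty acid oxidation genes had 11 of 20 above 0 and a median of 0.03, with the lowest p for Cpt1c (-1.33 ± 0.63, 6 to 24 counts a library), Acaa2 (-0.23 ± 0.14) and Ppard (0.26 ± 0.20). Regulators of the mTOR, Akt and AMPK pathways had 8 of 14 above 0 and a median of 0.01, with the lowest p for Prkaa1 (-0.14 ± 0.10), Rptor (-0.12 ± 0.10) and Mtor (-0.13 ± 0.13). The proliferation list had 19 of 21 above 0 and a median of 0.17, with the lowest p for Pcna (0.20 ± 0.10), Tyms (0.27 ± 0.15) and Mcm6 (0.15 ± 0.09).

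**Figure D4:**
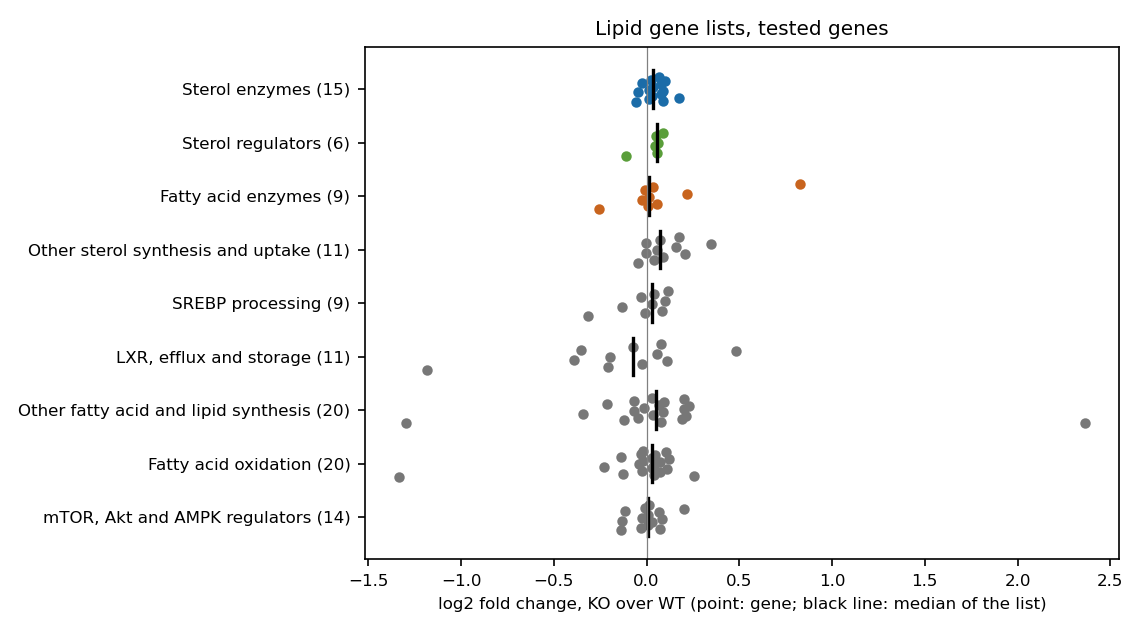
Fitted log2 fold change of KO over WT (x axis) for each tested gene of each lipid gene list (y axis, number of tested genes in brackets), with a black line at the median of the list. Medians run from -0.07 for LXR, efflux and storage to 0.07 for other sterol synthesis and uptake. The sterol enzymes and regulators are the most closely packed lists, and the widest points, such as Elovl7 at 2.36, are genes of few counts.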

How the data were processed

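Of the 8 samples of the series, 4 are RNA-seq libraries, used here, and 4 are ATAC-seq samples, not used here. Per the labels' protocols, RNA came from Trizol lysates cleaned on columns, was depleted of ribosomal RNA and was read as 50 bp single ends. The values were gene counts deposited by the authors as whole numbers without normalization, with positions. The same deposited table holds an adjusted p-value per gene, read as that of KO against WT. TopHat2, DESeq and mm9 are named in the submitters' processing notes. The counting tool, its annotation and its use of strand were not given in the sources used here. Reads of overlapping or similar genes can thus not be assigned with certainty.

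Genotypes were compared with edgeR 4.0.16 under R 4.3.3 by its quasi-likelihood test, with no term but genotype. Genes were kept by filterByExpr (14274 tested, 4917 left out) and scaled by TMM, and a call needed a two-sided Benjamini-Hochberg adjusted p under 0.05. Standard errors and 95% intervals used the moderated quasi-likelihood variance, with 2 residual and 3.49 prior degrees of freedom. CPM were scaled to 1000000 of the tested total times the TMM factor. Ratios within a replicate or genotype used log2 CPM with a prior count of 2. A count of 0 allowed up to 0.0481 to 0.112 CPM, taken as 3 counts of the total, for counting error only. DESeq2 1.42.0 and limma 3.58.1 were alternatives, beside other scalings, filters, the replicate number as a block and leaving out each library. The scripts were tested on simulated data.

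The members and the gene lists were chosen with earlier results of these data known. All members are named, and up to 3 tested genes of lowest p per other pathway list. Of the latter, 2 are not reported here. Lists are described by counts and medians, with no set test. Epcam, Krt8, Krt18, Krt19, Krt20, Tspan8, Cidec, Retn, Col3a1, Igj and Pecam1 were chosen after their values were seen.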

Additional observations from a re-analysis of the deposited data

How the results depend on the processing

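Calls among the 30 genes stayed at 0 under each of the 11 alternatives fitted to the counts. Over all genes, edgeR's 0 calls became 52 with no filter, and DESeq2 called 48. Leaving out single libraries gave 0 to 2 calls. DESeq2 size factors, upper-quartile factors, the stricter filter (2 libraries at or over 2 CPM, under which Fads2 was not tested) and limma-voom kept 0. With the replicate number as a block (1 residual degree of freedom), edgeR called 458 genes and none of the 30, whose lowest adjusted p was 0.257. Deviations of same-numbered libraries correlated at 0.641 over tested genes, but the labels do not say that the numbers pair the samples. No scaling or filter turned the direction of any of the 30, and limma-voom turned Nsdhl (-0.0024). Without single libraries the median log2 fold change ran from -0.10 to 0.14 for sterol enzymes, from -0.039 to 0.14 for regulators and from -0.075 to 0.14 for fatty acid enzymes. Such fits compare unequal mixes of the replicates. In the same fits the log2 fold change turned direction for 25 genes, with ranges of Mvk -0.013 to 0.080, Pmvk -0.32 to 0.15, Mvd -0.13 to 0.16, Idi1 -0.11 to 0.14, Fdps -0.41 to 0.47, Fdft1 -0.099 to 0.10, Sqle -0.088 to 0.23, Lss -0.31 to 0.44 and Cyp51 -0.13 to 0.25, of Tm7sf2 -0.10 to 0.015, Nsdhl -0.047 to 0.074, Hsd17b7 -0.048 to 0.35, Ebp -0.063 to 0.24, Dhcr7 -0.15 to 0.088, Insig1 -0.019 to 0.18, Scap -0.025 to 0.12 and Srebf1 -0.053 to 0.15 and of Srebf2 -0.060 to 0.15, Stard4 -0.078 to 0.16, Acly -0.10 to 0.10, Acaca -0.075 to 0.20, Fasn -0.43 to 0.28, Scd1 -0.13 to 0.13, Scd2 -0.37 to 0.34 and Elovl6 -0.13 to 0.16. The ranges of the other 5 were Acat2 0.058 to 0.12, Insig2 -0.24 to -0.011, Acss2 0.14 to 0.29, Fads1 -0.36 to -0.15 and Fads2 0.70 to 0.94. With 2 libraries per genotype and few counts, Fads2 remained the least bounded value.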
